A study of Mus musculus with 6 samples.

Results

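The mRNAs of the cytosolic translation initiation factors (eIF) and elongation factors (eEF) were examined in whole lenses of mice lacking Cd24a. They were taken by symbol, as every gene whose name starts with Eif1 to Eif6, Eef1 or Eef2, without pseudogenes and related sequences. This gave 89 of the 55416 genes in the count table, of which 64 had enough reads to be tested. The rule also takes in proteins that act on the factors, namely the kinases of eIF2, the binding proteins of eIF4E, and the kinase and methyltransferases of the elongation factors.

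The knockout group held 3 samples from animals with a Cd24a germline knockout, labelled C57BL/6, and the wild-type group 3 samples labelled C57BL/har, with 2 lenses pooled per sample and no treatment in the labels. Strain and genotype therefore cannot be told apart. The labels of the samples give an age of 8 weeks, whereas the text on the series has 7 weeks. Cd24a encodes a small surface glycoprotein held by a lipid anchor. It had 17514 to 20656 counts in wild-type libraries and 45 to 71 in knockout libraries. Totals ran from 5384542 to 7302951 counts per library. The 10 markers of lens fibre cells summed to between 277272 and 323971 CPM (counts scaled to a common library size), although 1 of them, Lim2, had 0 counts in all 6 libraries. Xist, the RNA of the inactive X chromosome, had 2191 and 2466 counts in replicate 3 of wild type and knockout and at most 4 in the other libraries, so each group held 1 library with a female pattern.

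Initiation begins when eIF2, carrying the initiator tRNA, joins the small ribosomal subunit together with eIF1, eIF1A, eIF3 and eIF5. The eIF4 factors bind the capped end of the mRNA, unwind it and bring it to this complex, and eIF5B joins the subunits once the start codon is found. The eEF1 factors then deliver each aminoacyl-tRNA and eEF2 moves the ribosome along. Mature lens fibre cells lose their nuclei and organelles and keep the crystallins made earlier, so that translation in the lens is confined to the epithelium and the younger fibres.

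Of the 64 tested members, 11 rose and 2 fell in the knockout by edgeR's quasi-likelihood test at an adjusted p of at most 0.05. That is 17.2% higher, against 3.02% of all 11474 tested genes, and 3.12% lower, against 4.48%. The median log2 fold change of the members was 0.10 and that of all tested genes was 0.004. The groups did not overlap for 23 members with the knockout above (35.9%, against 12.1% of all genes) and for 7 with the knockout below (10.9%, against 12.4%). Of the 13 called members, 12 differed by less than 1.5-fold. At an unadjusted p of at most 0.05 stood 28 members (43.8%, against 20.2% of all genes). A log2 fold change above 0 was seen in 44 of the 64 members, against 5823 of all 11474 tested genes (50.7%). The calls in either direction made up 7.5% of all genes. The higher count was lower when libraries were left out, which also leaves fewer samples for the test. The share of all genes called higher, given in brackets, dropped as well. It was 4 when wild-type replicate 1 was left out (1.68% of all genes), 6 when knockout replicate 1 was (1.64%), and 7 when wild-type replicate 2 (2.15%) or knockout replicate 2 was (2.51%). It was 9 with wild-type replicate 3 left out (2.3%), 7 with replicate 3 of both groups left out (1.81%), 7 by DESeq2 (1.91%), 8 with the replicate number as a block (2.55%) and 24 with library size alone as scaling (8.79%). The 2 lower calls, Eef1a2 and Eif5, and 3 of the higher ones, Eif4b, Eif4a2 and Eef1a1, passed under all 15 alternatives tried. A change in a whole lens can be a change in the RNA per cell or in the proportion of cells that hold it, and these cannot be told apart.

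**Figure D1:**
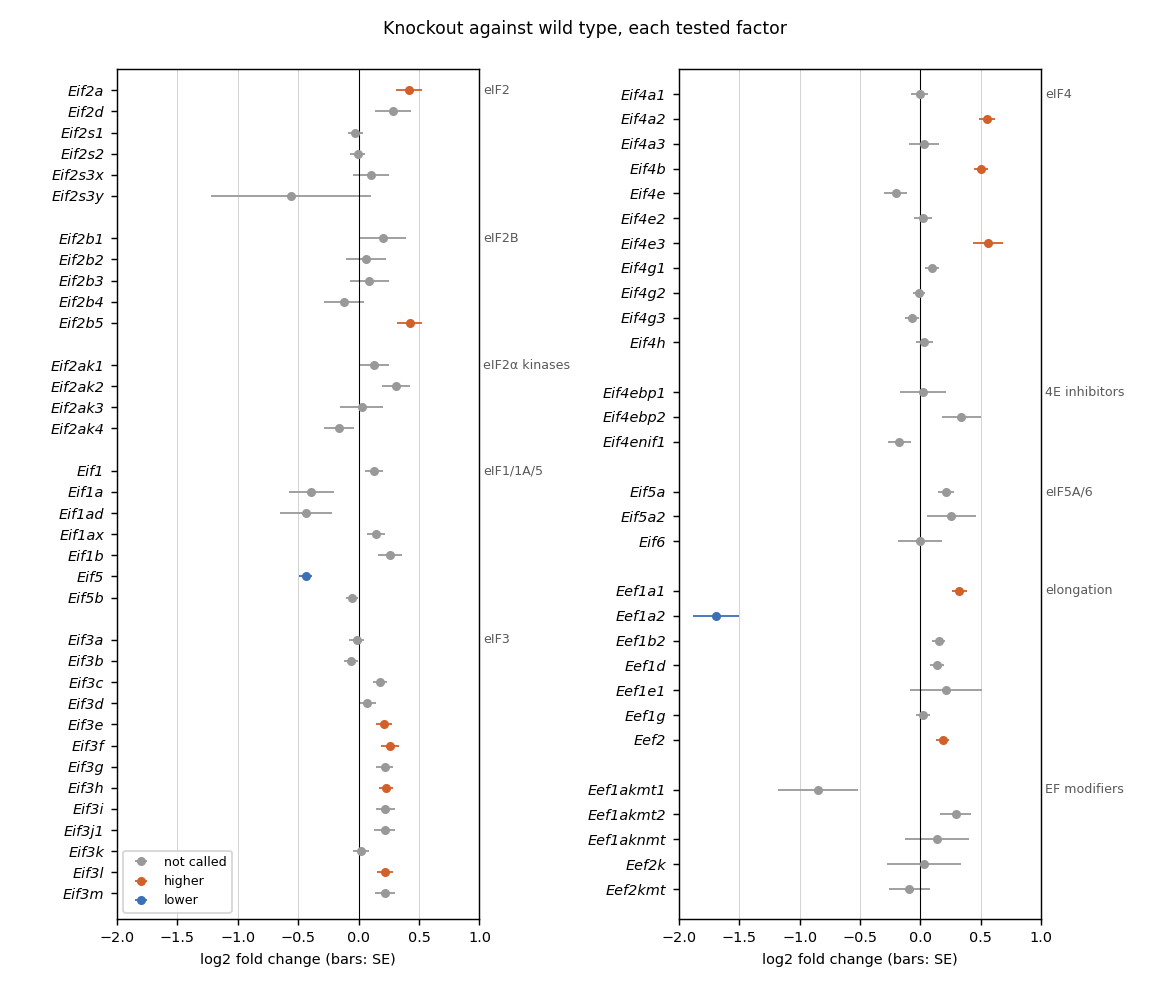
Log2 fold change of each of the 64 tested members, knockout against wild type, with bars for the SE, grouped by role (labels at the right edge of each panel). Orange points were called higher (11), blue points lower (2) and grey points were not called; Eef1a2, at -1.69, lies far below all others.

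The sequences around the start sites of 10 of the 13 called members are shown, because members that rose include Eef1a1, Eef2 and Eif4b, whose mRNAs are known in mammals to begin with a terminal oligopyrimidine tract, a cytosine followed by pyrimidines through which the mTORC1 kinase controls their translation. They come from RefSeq on GRCm38.p6, another build than that of the counts, matched by symbol, and run from 40 bases before to 26 bases after the annotated start. The positions are chr9:78481699-78481764 (minus strand) for Eef1a1, chr10:81176591-81176656 (plus) for Eef2, chr15:102073733-102073798 (plus) for Eif4b, chr16:20498777-20498842 (plus) for Eif2b5, chr7:108934375-108934440 (plus) for Eif3f, chr15:79075183-79075248 (plus) for Eif3l, chr16:23107428-23107493 (plus) for Eif4a2, chr3:58525781-58525846 (plus) for Eif2a, chr12:111538061-111538126 (plus) for Eif5 and chr2:181156990-181157055 (minus) for Eef1a2. Capitals mark the longest run of C and T on the sense strand that starts with C, overlaps the 20 bases either side of the start and has at least 7 letters.
Eef1a1: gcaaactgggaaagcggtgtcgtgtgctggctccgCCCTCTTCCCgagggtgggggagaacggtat
Eef2: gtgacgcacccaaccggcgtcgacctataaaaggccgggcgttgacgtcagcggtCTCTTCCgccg
Eif4b: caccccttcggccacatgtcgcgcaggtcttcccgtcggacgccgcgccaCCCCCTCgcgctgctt
Eif2b5: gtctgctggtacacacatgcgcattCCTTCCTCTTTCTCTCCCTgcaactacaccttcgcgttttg
Eif3f: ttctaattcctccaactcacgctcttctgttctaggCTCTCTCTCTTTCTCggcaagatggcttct
Eif3l: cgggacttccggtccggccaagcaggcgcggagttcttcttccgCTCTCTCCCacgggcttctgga
Eif4a2: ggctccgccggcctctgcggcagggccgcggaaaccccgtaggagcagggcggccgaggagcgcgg
Eif2a: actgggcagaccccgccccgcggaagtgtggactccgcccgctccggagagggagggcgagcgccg
Eif5: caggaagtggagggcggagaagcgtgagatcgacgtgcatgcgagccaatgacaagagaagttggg
Eef1a2: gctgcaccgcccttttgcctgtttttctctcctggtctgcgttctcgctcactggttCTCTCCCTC

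Such a run overlapped this window in 6 of the 8 higher members with a sequence (Eef1a1, Eef2, Eif4b, Eif2b5, Eif3f and Eif3l) and in neither Eif4a2 nor Eif2a. It spanned the annotated start in Eef1a1, Eif2b5 and Eif3f, and began downstream of it in Eif3l, Eif4b and Eef2. It was present in 1 of the 2 lower members, Eef1a2, and absent from Eif5. Among tested members that were not called it was found for 13 of 42 (31%), and among all genes with a sequence for 26.7% of 27025. The latter include genes that were not tested. The number of start windows also differed, with 8 for the 8 higher members, 57 for the 42 and 32851 for the 27025, so the shares are not a like comparison. The stricter form, a C at the annotated first base followed by at least 4 more C or T, held for 1 of the 8 higher members, Eif3f, against 3.01% of all genes. The search was set after the sequences and the fold changes had been seen, the annotated starts can be some bases away from the used ones, and a run is a match of letters and not a site. The entries cover 55 of the 89 members, and Eif3e, Eif3h and Eif4e3 are named only.

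The levels of the members were compared per length, as CPM per kb of exon. They ranged over more than 3 orders of magnitude on the log10 scale, from 0.49 ± 0.14 for Eef2k, the kinase that inhibits eEF2, to 862 ± 20.8 for Eef1a1 in wild type (SD, n = 3). Eef2 followed at 564 ± 15.2. Eif5b came next at 212 ± 3.81 CPM per kb, ahead of every other initiation factor, with 12578 to 14802 counts in wild type and 10867 to 12303 in the knockout. Among all 11474 tested genes, Eif5b ranked 129 per length and 32 by CPM. The median over the tested members was 12.2 CPM per kb. The length used joins all annotated exons of a gene and can exceed that of the transcripts present. Orders per length can therefore differ from orders by CPM.

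**Figure D2:**
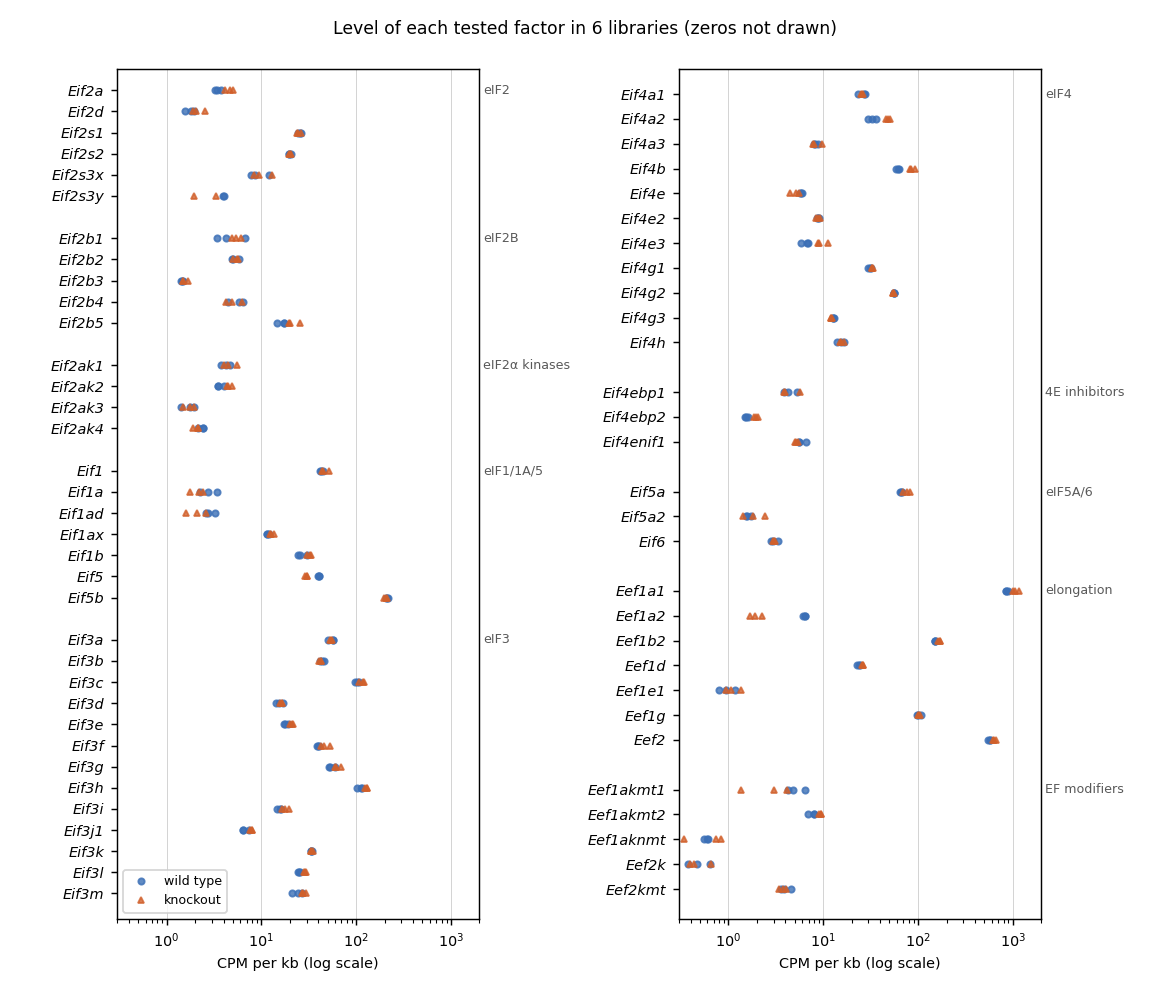
Level of each tested member in each of the 6 libraries, in CPM per kb on a log scale, by role (circles, wild type; triangles, knockout; libraries with a level of 0 are not drawn). Eef1a1, Eef2 and Eif5b lie above all others, and the circles and triangles of most members lie close together.

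The elongation factors carried the largest share of the members' reads. Their reads summed to 4842 ± 94.3 CPM for wild type, against 5688 ± 311 CPM for the knockout (SD, n = 3), with no overlap between the groups. Eef1a1, the GTPase that brings aminoacyl-tRNA to the ribosome, stood at 2107, 2134 and 2207 CPM in wild-type libraries and at 2637, 2512 and 2911 CPM in knockout libraries. All 3 knockout libraries lay above all wild-type libraries. It rose (log2 0.32, SE 0.06, edgeR adjusted p = 0.00111). Eef2, the GTPase of translocation, was at 1818, 1902 and 1908 CPM against 2108, 2058 and 2228 CPM, a 1.14-fold rise (log2 0.18, SE 0.05, edgeR adjusted p = 0.0417). Its groups did not overlap either, but its call was lost without wild-type replicate 1 or 3 or knockout replicate 1 or 3 (edgeR adjusted p = 0.087 to 0.169) and with the replicate number as a block (0.0906). 

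Eef1a2, the isoform that replaces eEF1A1 in adult neurons and muscle, went the other way and had the largest fold change among the tested members. Its counts were 95, 80 and 83 in wild type and 22, 30 and 19 in the knockout, that is 13.5, 12.6 and 13.4 CPM against 3.96, 4.70 and 3.49 CPM. It fell 3.23-fold (log2 -1.69, SE 0.19, edgeR adjusted p = 4.85e-06), and the highest knockout library was far below the lowest wild-type library. Its level per length was 0.73% ± 0.03 of the sum of Eef1a1 and Eef1a2 for wild type and 0.18% ± 0.04 for the knockout. The 10 photoreceptor markers, which point to neurons of the neighbouring retina, summed to 175 to 449 CPM in wild type and 163 to 293 CPM in the knockout, with 2 called lower, 0 higher and none at 0. The 6 skeletal muscle markers summed to 3.56 to 4.84 and 4.41 to 5.40 CPM, with Tnnt3 at 0 and neither of the 2 tested markers called, and the 9 markers of pigment epithelium and melanocytes to 83.3 to 95.4 and 51.5 to 64.6 CPM, with 4 called lower, 0 higher and none at 0. In the lens lists, the 6 epithelium markers summed to 534 to 551 CPM in wild type and 442 to 456 CPM in the knockout. None was at 0, and 3 were called lower, Aqp1, Gja1 and Npnt. Pax6 (log2 0.02), Foxe3 (log2 0.05) and Cdh1 (log2 -0.24) were not called. The fibre markers summed to 304064 to 323971 CPM in wild type and 277272 to 313620 CPM in the knockout, with overlap. Of the 9 tested fibre markers, 3 were called lower, against 4.48% of all tested genes, and 0 higher. The 6 blood markers, none of them tested or at 0 in all libraries, summed to 0.57 to 1.29 CPM in wild type and to 2.21 to 6.66 CPM in the knockout, without overlap, with the beta-globin gene Hbb-bs at 0 counts in each wild-type library and at 23, 4 and 5 in the knockout. The part of any of these cells in the values of the members was not tested.

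The subunits of the eEF1B complex, which reloads eEF1A with GTP, did not pass. Eef1b2 had a log2 fold change of 0.15 (SE 0.05, edgeR adjusted p = 0.0937), Eef1d one of 0.14 and Eef1g one of 0.02, and Eef1b2 and Eef1d had no overlap between the groups. Both were called higher with library size alone as scaling, and Eef1b2 also by limma-voom. Per length, Eef1b2 was at 151 ± 0.51 CPM per kb in wild type and Eef1g at 101 ± 4.52, whereas Eef1d was at 23.8 ± 0.86. Their mean CPM in wild type lay closer together, at 383, 264 and 154, with exon lengths of 2532, 2600 and 6488 bp. Eef1e1, which belongs to the aminoacyl-tRNA synthetase complex in spite of its name, was scarce, with 17 to 24 counts per library and a log2 fold change of 0.21 (SE 0.30).

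The enzymes that modify elongation factors were all at low levels and none of the 5 tested was called. Eef1akmt2, a lysine methyltransferase of eEF1A and the most abundant of them, had 14.0, 12.3 and 14.2 CPM in wild-type libraries and 16.7, 16.0 and 16.9 CPM in knockout libraries (log2 0.29, SE 0.13, edgeR adjusted p = 0.211). Eef1akmt1 had 43, 29 and 25 counts against 16, 25 and 7, a log2 fold change of -0.85 with an SE of 0.33. Eef2k had 16 to 31 counts per library and a log2 fold change of 0.03 with an SE of 0.31, so that a change of moderate size was not detectable at this depth.

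**Figure D3:**
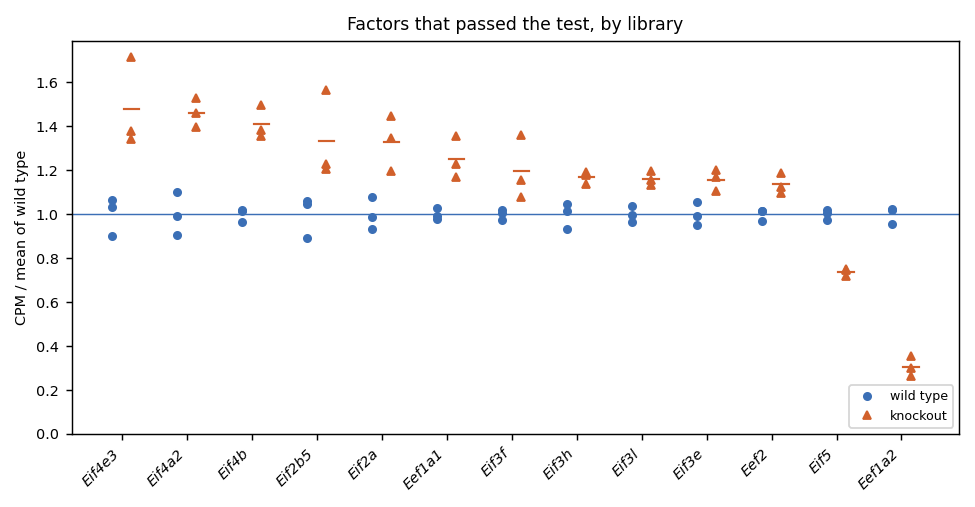
CPM of the 13 called members in each library, divided by the mean of the wild-type libraries (circles, wild type; triangles, knockout; short lines, mean of the knockout). The 3 knockout libraries lie above the wild-type libraries for the 11 members on the left and below them for Eif5 and Eef1a2.

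Among the eIF4 factors, 3 of 11 tested members rose (27.3%, against 3.02% of all tested genes) and none fell (against 4.48%). Eif4a2, a DEAD-box helicase of the cap-binding complex, had 175, 160 and 195 CPM in wild-type libraries and 247, 258 and 269.8 CPM in knockout libraries. It rose 1.46-fold (log2 0.55, SE 0.07, edgeR adjusted p = 1.27e-05). Its close relative Eif4a1 had 116, 119.6 and 102 CPM against 112, 109 and 115 CPM, with overlapping groups and a log2 fold change of -0.01 (SE 0.07; 0.10 with library size alone as scaling). The share of Eif4a2 in the total of both, per length, was 55.9% ± 4.49 in wild type and 65.1% ± 0.86 in the knockout (SD, n = 3), and no library of one group reached into the range of the other. Reads from stretches in which these helicases and their pseudogenes are near-identical may have been split between them. Eif4a3, the helicase of the exon junction complex, had a log2 fold change of 0.03.

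Eif4b, which stimulates the helicase, had 280, 278 and 265 CPM in wild-type libraries and 379.7, 372 and 411 CPM in knockout libraries. All knockout libraries were above all wild-type libraries, by 1.41-fold on average (log2 0.50, SE 0.06, edgeR adjusted p = 5.59e-06). Eif4h, a related helicase cofactor, had a log2 fold change of 0.03 (SE 0.07) and did not pass.

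Of the cap-binding proteins, Eif4e3, an atypical member of the eIF4E family, rose 1.48-fold from 17.5, 14.8 and 17.0 CPM to 28.2, 22.7 and 22.1 CPM (log2 0.56, SE 0.12, edgeR adjusted p = 0.00602). Its call was lost without knockout replicate 1, the highest library (adjusted p = 0.0676). Eif4e itself had 34.3, 35.0 and 35.6 CPM against 33.1, 27.1 and 31.1 CPM; the knockout lay below, with a log2 fold change of -0.20 (SE 0.10, edgeR adjusted p = 0.242). Eif4e2, a cap-binding protein linked to translational repression, had a log2 fold change of 0.02 (SE 0.07). It was the most abundant of the 3 per length, at 8.79 ± 0.26 CPM per kb in wild type, against 6.54 ± 0.56 for Eif4e3 and 5.82 ± 0.10 for Eif4e. The lowest wild-type value of Eif4e3, 5.90, lay just under the highest of Eif4e, 5.92. By mean CPM in wild type the order of these 2 was reversed, with Eif4e at 35.0 and Eif4e3 at 16.4.

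None of the eIF4G scaffolds, which join the cap-binding protein to eIF3, passed, although the groups were apart for Eif4g1 and Eif4g3. Eif4g2, which lacks the part that binds eIF4E, was the most abundant per length at 55.7 ± 0.23 CPM per kb in wild type and 55.3 ± 1.02 in the knockout (log2 -0.01, SE 0.05). Eif4g1 was at 30.9 ± 1.23 and 33.0 ± 0.33 (log2 0.10, SE 0.06) and Eif4g3 at 12.8 ± 0.12 and 12.2 ± 0.10 (log2 -0.07, SE 0.06). With library size alone as scaling, which moved the median of all genes to 0.11, Eif4g1 passed (log2 0.21, adjusted p = 0.024) and Eif4g2 had a log2 fold change of 0.10.

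None of the 3 tested inhibitors of eIF4E was called, at an unadjusted p of at most 0.05 in 1 case, Eif4ebp2. The 4E-binding proteins, which mTORC1 releases from eIF4E by phosphorylation, were scarce. Eif4ebp1 had 9.26, 11.5 and 8.41 CPM in wild-type libraries and 12.6, 8.46 and 8.64 CPM in knockout libraries, and its sign changed when single libraries were left out. Eif4ebp2 had 8.69, 8.84 and 9.22 CPM against 10.8, 11.7 and 11.2 CPM, without overlap but with a log2 fold change of 0.34 (SE 0.16, edgeR adjusted p = 0.244). Eif4ebp3 had 0 counts in all libraries. Eif4enif1, which carries eIF4E into the nucleus, was the most abundant of the group at 5.89 ± 0.56 CPM per kb in wild type and had a log2 fold change of -0.18 (SE 0.095).

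eIF3, the large scaffold of the small ribosomal subunit's initiation complex, had 13 tested subunits. Of these, 4 rose (30.8%, against 3.02% of all tested genes), none fell (against 4.48%) and 9 did not pass. Summed, the eIF3 subunits stood at 1903, 1880 and 1986 CPM in wild-type libraries and at 2062, 2073 and 2142 CPM in knockout libraries. Eif3h, the most abundant per length, had 166, 180 and 186 CPM in wild-type libraries and 211, 202 and 209 CPM in knockout libraries (1.17-fold, log2 0.23, SE 0.06, edgeR adjusted p = 0.0217). Eif3f had 111, 116 and 115 CPM against 122, 131 and 155 CPM (log2 0.26, SE 0.07, edgeR adjusted p = 0.0366), where knockout replicate 3 stood above the other libraries and without it the log2 fold change was 0.16. Eif3l had 87.6, 90.6 and 94.1 CPM against 109, 105 and 103 CPM (log2 0.22, SE 0.06, edgeR adjusted p = 0.0392). Eif3e had 120, 115 and 128 CPM against 142, 134 and 145 CPM (log2 0.21, SE 0.06, edgeR adjusted p = 0.0462).

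In all 4 of these subunits the knockout lay above wild type without overlap, as it did for 12.1% of all tested genes. They were picked by a test on the same libraries, so the lack of overlap adds no support. The differences were small and the calls were near the threshold. Eif3h lost its call without wild-type replicate 1 or 2 or knockout replicate 1 (adjusted p = 0.0751 to 0.211). Eif3e kept its call under 5 of 15 alternatives, Eif3l under 6 and Eif3f under 8. All 3 lost it by DESeq2 (adjusted p = 0.0609 to 0.128) and without wild-type replicate 1 or 2. With the replicate number as a block, Eif3e and Eif3l lost theirs (adjusted p = 0.0622 and 0.0783).

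The other subunits fell into a range of close values and a set near 0. Eif3g, Eif3i, Eif3j1 and Eif3m had log2 fold changes of 0.22 each without passing, so that 8 of 13 subunits, 4 of them called and 4 not, were at 0.2 or above, as were 19.2% of all tested genes, and Eif3c was at 0.18. With library size alone as scaling, Eif3c, Eif3g, Eif3i, Eif3j1 and Eif3m were called higher as well, as were Eif3c by limma-voom, Eif3m without wild-type replicate 2 and Eif3g without wild-type replicate 3. Eif3a, the largest subunit, was at -0.02, Eif3b at -0.06, Eif3k at 0.02 and Eif3d, a subunit with cap-binding activity of its own, at 0.07. Per length, wild-type levels of the subunits ran from 110 ± 6.42 CPM per kb for Eif3h to 6.72 ± 0.53 for Eif3j1, a loosely bound subunit. Eif3c was at 102 ± 5.03, below Eif3h in each library, and Eif3k at 33.6 ± 0.44. By mean CPM in wild type the order differed, with Eif3a at 479, Eif3c at 359 and Eif3h at 177. Eif3j2, a near copy of Eif3j1, had 1 to 10 counts per library and was not tested.

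**Figure D4:**
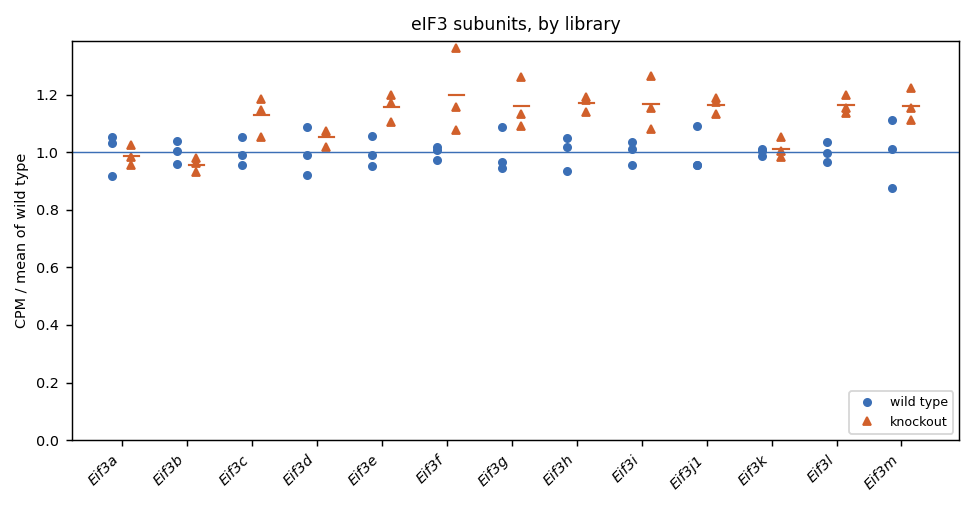
CPM of each tested eIF3 subunit in each library, divided by the mean of the wild-type libraries (circles, wild type; triangles, knockout; short lines, mean of the knockout). The knockout libraries lie above the wild-type libraries for 8 of 13 subunits (61.5%, against 12.1% of all tested genes). For Eif3a, Eif3b, Eif3d, Eif3k and Eif3m the groups overlap.

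The factors around the start codon held the other lower call. Eif5, which makes eIF2 hydrolyse its GTP, had 279.7, 268 and 276 CPM in wild-type libraries and 206, 197 and 205 CPM in knockout libraries. It fell 1.36-fold (log2 -0.44, SE 0.06, edgeR adjusted p = 1.7e-05), and the highest knockout library was well below the lowest wild-type library. Eif5b, which acts after it, had 2108, 2066 and 2034 CPM against 2049, 1927 and 1999 CPM, with overlapping groups and a log2 fold change of -0.06 (SE 0.05; 0.05 with library size alone). The level per length of Eif5b was 5.27 ± 0.12 times that of Eif5 in wild type and 6.87 ± 0.07 times in the knockout (SD, n = 3).

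Eif1, the guard of start codon choice, had 87.2, 93.3 and 89.1 CPM in wild-type libraries and 94.8, 91.3 and 109 CPM in knockout libraries (log2 0.13, SE 0.07), and its paralog Eif1b 33.9, 28.7 and 27.3 CPM against 33.8, 36.7 and 37.5 CPM (log2 0.26, SE 0.10). Neither passed, and in both the groups overlapped. Of the eIF1A genes, the X-linked Eif1ax had 63.1, 60.0 and 60.2 CPM against 71.8, 64.9 and 66.2 CPM (log2 0.14, SE 0.07) and the autosomal Eif1a 11.4, 9.47 and 14.1 CPM against 7.38, 9.09 and 10.1 CPM (log2 -0.39, SE 0.19). Neither passed. Eif1, Eif1b and Eif1ax were called higher with library size alone as scaling (adjusted p = 0.0274 to 0.04). The 17 genes named Eif1ad followed by a number, all on chromosome 12, gave 0 counts for 16 of them and 2 counts, in 1 library, for Eif1ad11. Eif1ad itself had 54, 46 and 56 counts in wild type and 25, 46 and 32 in the knockout, lower in CPM in all knockout libraries (log2 -0.44, SE 0.22, edgeR adjusted p = 0.267).

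None of the genes of the 3 eIF2 subunits was called. Eif2s1, the α subunit whose phosphorylation blocks initiation under stress, had 127, 119.96 and 129 CPM in wild-type libraries and 118, 128 and 122 CPM in knockout libraries (log2 -0.03, SE 0.06). Eif2s2, the β subunit, had a log2 fold change of -0.01 (SE 0.06). The γ subunit is encoded on both sex chromosomes. Eif2s3x, which escapes X inactivation in mice, had 29.8, 32.5 and 46.1 CPM in wild-type libraries and 35.6, 31.8 and 49.1 CPM in knockout libraries, with replicate 3, the library with the female pattern, highest in each group. The Y-linked Eif2s3y had 115, 106 and 0 counts in wild type and 45, 89 and 0 in the knockout, with 0 in the same libraries. Among the libraries with reads of it, Eif2s3y was at 16.4 and 16.7 CPM in wild type and at 8.09 and 13.9 CPM in the knockout, without overlap. Neither gene was called (log2 0.10, SE 0.15, for Eif2s3x and log2 -0.56, SE 0.66, for Eif2s3y), in a fit with no term for sex that includes the libraries at 0. Without replicate 3 of both groups, Eif2s3y had a log2 fold change of -0.57 (edgeR adjusted p = 0.129), and with the replicate number as a block one of -0.60 (0.117). Leaving out single libraries moved it between -0.0094, without knockout replicate 3, and -1.45, without knockout replicate 2.

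**Figure D5:**
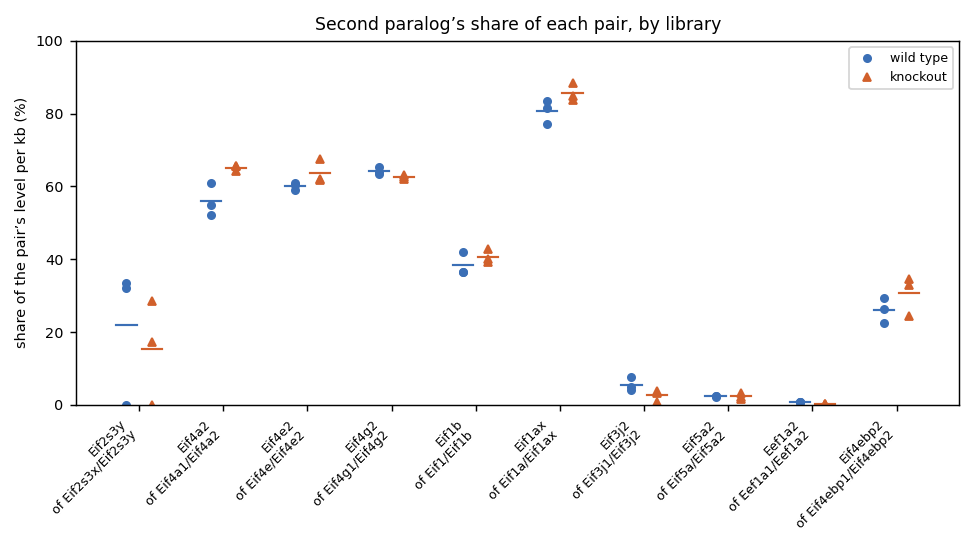
Share of the paralog named above in the level per kb of each pair (percent), in each library, with short lines for the group means (circles, wild type; triangles, knockout). The shares of Eif4a2 in the knockout lie above those in wild type, those of Eif2s3y are 0 in replicate 3 of each group, and Eef1a2 takes less than 1% of its pair.

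Around eIF2, Eif2a rose. It encodes a factor distinct from the eIF2 α subunit that delivers the initiator tRNA without GTP, and had 21.1, 19.9 and 23.0 CPM in wild-type libraries and 25.5, 30.9 and 28.7 CPM in knockout libraries (1.33-fold, log2 0.42, SE 0.11, edgeR adjusted p = 0.0205). Eif2b5, the catalytic subunit of eIF2B, which reloads eIF2 with GTP, rose from 38.0, 44.7 and 45.1 CPM to 52.3, 66.7 and 51.3 CPM (1.34-fold, log2 0.42, SE 0.10, edgeR adjusted p = 0.0112), with knockout replicate 2 standing highest. Without knockout replicate 2 it was at log2 0.29 and lost its call (adjusted p = 0.0711), as it did without wild-type replicate 1 (0.0786). Eif2a lost its call without wild-type replicate 1 or 2 or knockout replicate 2 (adjusted p = 0.0708 to 0.0994) and by DESeq2 (0.111). The other 4 subunits of eIF2B had log2 fold changes between -0.12 and 0.20 and did not pass. Per length, Eif2b5 was at 16.4 ± 1.53 CPM per kb in wild type, above the other subunits, which ran from 1.45 ± 0.04 for Eif2b3 to 5.54 ± 0.97 for Eif2b4.

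None of the 4 kinases that phosphorylate eIF2α under stress was called. Eif2ak1, the heme-regulated kinase and the most abundant of the 4, had 21.5, 24.3 and 26.7 CPM against 31.3, 25.1 and 22.6 CPM (log2 0.13, SE 0.12). Eif2ak2, the kinase activated by double-stranded RNA, was at log2 0.31 (SE 0.11, edgeR adjusted p = 0.109) without overlap between the groups. Eif2ak3, the kinase of the endoplasmic reticulum, was at 0.02 and Eif2ak4, the kinase of amino acid shortage, at -0.16.

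Eif5a, which helps the ribosome past difficult stretches and carries the hypusine modification, had 153, 159 and 159.8 CPM in wild-type libraries and 184, 167 and 195 CPM in knockout libraries. The groups were apart, and the log2 fold change of 0.21 (SE 0.06) just missed the threshold (edgeR adjusted p = 0.0513), which it passed with upper-quartile scaling (0.046), limma-voom (0.0481), library size alone and without knockout replicate 2. Its relative Eif5a2 had 7.83, 8.68 and 7.76 CPM against 9.17, 12.4 and 7.17 CPM (log2 0.26, SE 0.20). Eif6, which keeps the ribosomal subunits apart, had a log2 fold change of -0.01 (SE 0.18).

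Other genes of the pathway were described by 4 lists, whose counts stand against 3.02% of all tested genes called higher and 4.48% called lower. Of 24 tested translation factors with other names, among them poly(A)-binding, termination and recycling factors, none was called higher or lower, with a median log2 fold change of 0.09. Of 16 genes of mTORC1 and MNK signalling, Rps6, a ribosomal protein and target of this pathway, was called higher (log2 0.18, SE 0.05, edgeR adjusted p = 0.0464) and Tsc2, an inhibitor of mTORC1 (log2 -0.37, SE 0.08, edgeR adjusted p = 0.00316), and Mtor, its kinase (log2 -0.22, SE 0.07, edgeR adjusted p = 0.0483), were called lower. The call of Rps6 was lost under 11 of 15 alternatives and that of Mtor under 13, in both cases also with RLE scaling, which leaves out no library, and that of Tsc2 under 1, library size alone. Of 14 phosphatase subunits and targets of eIF2 signalling, 5 were called lower and 1 higher, and the median was -0.10. Ppp1r15a, which guides a phosphatase to eIF2α, fell by 1.37 on the log2 scale, Cebpb, a transcription factor, from 6.24 ± 0.72 to 2.20 ± 0.18 CPM (SD, n = 3), and Atf4, a transcription factor translated when eIF2α is phosphorylated, by 0.46 on the log2 scale, whereas Ppp1ca, a catalytic subunit of the phosphatase, rose by 0.37. These 4 were called under all 15 alternatives, whereas the other two lower calls, Atf5 and Ddit3, were lost under 9 and 8. Of 11 mitochondrial translation factors, 1 was called, Mtres1, the neighbour of Cd24a on the chromosome, at log2 3.10.

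In the authors' deposited table, 10 of the 64 members had a q-value of at most 0.05, 8 with a positive and 2 with a negative fold change. All 10 were among the 13 called here. Eef2, Eif3e and Eif3l were not, with q-values of 0.109, 0.0911 and 0.0897 in the authors' deposited table. Eef1a2 was the 1 member on the authors' list of changes over 2-fold, and the authors' deposited table gave it a signed fold change of -3.23, with mean FPKM of 6.33 in wild type and 1.94 in the knockout.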

How the data were processed

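Total RNA of whole lenses was sequenced after ribosomal RNA depletion, per the labels' protocols. The deposited counts are whole reads for each gene of Ensembl release 104, with exon lengths in bp and a GC fraction per gene that the authors gave and that was not used in tests. Per the submitters' processing notes, HISAT2, HTSeq, edgeR and GRCm39 were used; no source used here states the strand setting, so reads of overlapping antisense genes cannot be separated. The authors' deposited table holds a signed fold change (treated as a score, since it jumps from -1 to 1), q-values beside p-values, and mean FPKM per group.

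From the counts, 11474 genes passed filterByExpr and were tested with edgeR 4.0.16 (glmQLFit, TMM scaling, R 4.3.3). Tests were two-sided, and p-values were adjusted after Benjamini and Hochberg over all tested genes. SEs of log2 fold changes were taken from the F statistics. CPM used TMM-scaled totals, and CPM per kb used the deposited exon lengths. P-values measure the spread between 3 pooled samples per group. The precision follows the counts given, for which intervals would cover counting error only. The common biological coefficient of variation was 7.19%. No pair of libraries of a group agreed within sampling noise (chi-square per degree of freedom of at least 2.61).

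The members and lists were chosen with earlier results of these data known. Named with values were all called members, the most abundant tested member of each role, and preset paralog pairs; other members named with a value were chosen after their values were seen. At most 4 called genes of each list of other pathway genes were named. The fit was tested on simulated data with the common biological coefficient of variation. It called 5 of 50 genes changed 1.25-fold, 25 of 50 changed 1.5-fold and 43 of 50 changed 2-fold, with 8 false calls. Small changes of genes drawn at random from the tested ones were thus often missed, and the rates for the members can differ. A member that did not pass may still differ. Alternatives were RLE, upper-quartile and library-size scaling, 2 other filters, DESeq2 1.42.0, limma-voom (limma 3.58.1), a replicate block and leaving out libraries.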

Additional observations from a re-analysis of the deposited data

Results flagged for a closer look

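Reads on pseudogenes of the factors lie outside the members described above, and those with more than 3 counts in each of the 6 libraries drew attention as signal that no comparison used. Eef1a1-ps1 had 34 to 47 counts per library and 248 in total. Eif4a-ps4 had 9 to 22 counts per library and 85 in total. How many of these reads came from the genes they were copied from was not tested.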

How the results depend on the processing

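The number of members called higher was 11 and moved to 24 with library size alone and to 7 with DESeq2 or without replicate 3 of both groups; leaving out 1 library at a time it ranged from 4 to 9. The number called lower was 2 under all 15 alternatives. The members' median log2 fold change was 0.10 and moved to 0.21 with library size alone, where that of all genes was 0.11, and to 0.068 without replicate 3 of both groups; leaving out single libraries it ranged from 0.076 to 0.13. Calls in the lists of other pathway genes numbered 10. They were 8 with RLE scaling, either other filter, limma-voom or the replicate block, 9 with upper-quartile scaling, 7 with DESeq2, 12 with library size alone, 6 without replicate 3 of both groups, and 6 to 8 with single libraries left out. The causes were not tested. Over all tested genes, the replicate numbers did not pair the samples. Deviations of same-numbered samples correlated at 0.0545, -0.0348 and 0.0349, and samples did not all correlate best with their own number. The numbers did follow the sex pattern, since replicate 3 of each group was the library with the female pattern. The replicate block, which thus also takes up that difference, gave 8 higher and 2 lower calls. Log2 fold changes of some members that were not called turned their sign. With library size alone, Eif2s1 was at 0.082, Eif4a1 at 0.10, Eif4g2 at 0.098 and Eif5b at 0.053. With single libraries left out, Eif2ak1 ranged from -0.015 to 0.22, Eif2s3x from -0.098 to 0.31, Eif4a1 from -0.076 to 0.038, Eif4e2 from -0.014 to 0.054, Eif4ebp1 from -0.19 to 0.16 and Eif4g2 from -0.029 to 0.0006. Members with few counts, such as Eef2k and Eef1e1, have errors that hide moderate changes.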
